A study of Homo sapiens with 30 samples.

Results

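Canonical histone genes lie in clusters and encode the proteins of the nucleosome, with H2A, H2B, H3 and H4 forming its core and H1 binding the linker DNA. Most of their messages are made during DNA replication and end in a conserved stem-loop, not a poly(A) tail, and the stem-loop binding protein SLBP and the U7 small nuclear RNP act in making that end. Some histone genes also give polyadenylated messages. The libraries described here were made from poly(A) RNA, so the levels below are not those of all histone messages of a cell. They are read as levels of polyadenylated transcripts, but whether each transcript had a poly(A) tail was not tested.

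The members are 56 histone cluster genes measured in SUM190, an inflammatory breast cancer cell line. They were taken from the 71 symbols of the expression table that begin with HIST1H, HIST2H, HIST3H or HIST4H, of 20114 symbols in all. A gene was kept where its level was at least 1 CPM (the read count scaled to library size by the authors) in at least 2 of the 30 libraries. The members comprised 4 of 6 H1 genes, 14 of 17 H2A genes, 17 of 18 H2B genes, 10 of 15 H3 genes and 11 of 15 H4 genes. The 15 symbols left out were HIST1H1A, HIST1H1T, HIST1H2AA, HIST1H2AD, HIST1H2BA, HIST1H3I, HIST1H4F, HIST1H4G, HIST1H4J, HIST1H4L, HIST2H2AB, HIST2H3A, HIST2H3C, HIST2H3PS2 and HIST3H3. Just inside the limit, HIST1H3F was at 1.06 CPM in its second highest library, and just outside it HIST1H1A was at 0.771 CPM.

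The series holds 15 groups of 2 libraries, and the cells were exposed for 72 h to agents added 24 h after seeding. The parental groups were DMSO, paclitaxel (2.5 nM and 10 nM), doxorubicin (65 nM and 1 µM), ruxolitinib (15 µM), and the pairing of ruxolitinib and 2.5 nM paclitaxel. The groups of the doxorubicin-resistant line (DR) were DMSO and doxorubicin (350 nM and 1 µM). Those of the paclitaxel-resistant line (PR) were DMSO, paclitaxel (6.5 nM and 10 nM), ruxolitinib (15 µM), and the pairing of ruxolitinib and 6.5 nM paclitaxel. Paclitaxel stabilises microtubules, doxorubicin is an anthracycline that poisons topoisomerase II, and ruxolitinib inhibits JAK1 and JAK2. For the combinations the labels give ruxolitinib as 15 nM, and whether nM or µM was meant cannot be told from them. Each resistant line is a single derivative, so line and resistance cannot be told apart. Nothing says that the libraries of a group came from separate cultures, so each p-value is set against differences between libraries that could be technical alone. In the plots, Par, DR and PR name the lines, PTX, Dox and RUX the drugs, and Low and High the lower and higher dose.

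The libraries held 18443749 to 32669995 reads, of which 2532 to 25147 fell on the 56 members, and 3 reads came to 0.0947 to 0.163 CPM. The 6 epithelial and ERBB2 markers were at 257 CPM or more in every library. Of 10 markers of other cell types in the table, 5 stayed under 1 CPM in every library. The sum of the 10 was 27 to 30.4 CPM in parental DMSO cells, 42.7 to 46.7 CPM at 10 nM paclitaxel and 34 to 39.5 CPM at 1 µM doxorubicin. At 1 µM doxorubicin VWF, an endothelial marker, was at 6.78 CPM against 0.404 CPM with DMSO. The part of these markers in the differences below was not tested.

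All 56 members matched a GENCODE v29 transcript, with 45 genes on chromosome 6, 10 on chromosome 1 and 1 (HIST4H4) on chromosome 12. For 19 members the longest GENCODE transcript had 1000 bases or more, and for 37 it was shorter. A stem-loop of 6 base pairs and a loop of 4 bases was found in the annotated transcripts of 27 members, and in 20 of them more than 100 bases followed it. A site beyond the end of an annotated transcript could not be found, so the other members cannot be said to lack a stem-loop. HIST1H2BK, not among the 27, had 1 GENCODE transcript of 381 bases, and its RefSeq gene spanned 8566. The sites below are shown because they cover each of the 5 stem-loop forms found. Capitals mark the arms of the stem, and 5 bases are shown on either side.
HIST2H2BE: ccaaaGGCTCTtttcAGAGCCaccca
HIST1H3G: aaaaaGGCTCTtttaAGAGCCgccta
HIST1H4H: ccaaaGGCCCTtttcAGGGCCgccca
HIST2H4B: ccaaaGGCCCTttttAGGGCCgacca
HIST1H3E: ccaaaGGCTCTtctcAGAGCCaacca
The form shown for HIST2H2BE was shared by 15 members, that of HIST1H3G by 4, that of HIST1H4H by 4 and that of HIST2H4B by 3, and that of HIST1H3E was found in 1. In the annotated transcripts 1729 bases followed the stem-loop of HIST2H2BE, 1518 that of HIST1H3G and 1655 that of HIST1H4H. Histone genes are near copies of one another, and in 12 members fewer than 50% of the 50-base windows were unique among annotated transcripts. HIST1H2BK had 25.9% unique windows, counted over its 381 annotated bases only, and HIST2H4B and HIST1H3D had 0%. Their counts may be split with other copies and are uncertain.

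RefSeq promoters (build GRCh38.p14, 250 bases before to 50 bases after the start) were matched for 52 members and searched on both strands for 4 motifs, which may overlap. CCAAT, the NF-Y site, was in 84.6% of them and in 35.7% of all 27305 promoters. It was in every H1, H2A, H2B and H3 promoter matched and in 1 of 9 H4 promoters. TATAAA was in 63.5% of member promoters and 12% of all. The octamer ATTTGCAT, a site of POU2F1, was in 13 of 17 H2B and 8 of 13 H2A promoters and in 1.8% of all. AAACACA was in 4 of 4 H1 promoters and 5.76% of all. A match is a match of letters only. The 250 bases before the start are printed, with matches in capitals, for 2 linker histone genes whose levels moved differently and for the H2B gene HIST1H2BK. They lie at chr6:26056471-26056720 on the minus strand (HIST1H1C), chr6:26156079-26156328 on the plus strand (HIST1H1E) and chr6:27146859-27147108 on the minus strand (HIST1H2BK).
HIST1H1C: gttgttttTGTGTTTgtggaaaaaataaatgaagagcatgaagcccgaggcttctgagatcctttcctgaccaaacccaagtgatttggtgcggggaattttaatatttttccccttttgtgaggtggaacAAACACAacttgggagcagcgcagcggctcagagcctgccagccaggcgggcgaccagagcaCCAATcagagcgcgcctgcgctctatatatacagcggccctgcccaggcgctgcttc
HIST1H1E: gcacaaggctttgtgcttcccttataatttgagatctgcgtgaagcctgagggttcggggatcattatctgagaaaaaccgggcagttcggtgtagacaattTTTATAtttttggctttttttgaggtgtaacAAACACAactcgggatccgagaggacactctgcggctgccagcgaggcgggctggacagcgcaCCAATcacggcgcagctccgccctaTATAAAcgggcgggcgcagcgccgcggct
HIST1H2BK: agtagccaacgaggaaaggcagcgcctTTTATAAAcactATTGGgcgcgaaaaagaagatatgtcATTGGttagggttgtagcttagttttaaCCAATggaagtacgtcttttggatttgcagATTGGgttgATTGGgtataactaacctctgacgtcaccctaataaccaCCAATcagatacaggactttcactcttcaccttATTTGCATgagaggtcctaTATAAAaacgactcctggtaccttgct

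Among the parental paclitaxel libraries, 2 stood apart in their histone transcripts. At 2.5 nM, 22 members were higher by 1 or more on the log2(CPM + 1) scale in replicate 2 than in replicate 1, and at 10 nM 7 members were higher by as much in replicate 1. No member differed by as much between the replicates of the other 13 groups. The 7 members, all among the 22, were HIST1H1E, HIST1H2AM, HIST1H2BI, HIST1H2BM, HIST1H4A, HIST1H4E and HIST2H2BF. HIST1H1E, a linker histone gene, was at 1.65 and 17.3 CPM in the 2 libraries at 2.5 nM and at 10.1 and 1.86 CPM in those at 10 nM. HIST4H4, the H4 gene on chromosome 12, was at 0.824 and 5.36 CPM at 2.5 nM and at 3.05 and 1.03 CPM at 10 nM. In both genes the high library was replicate 2 at the lower dose and replicate 1 at the higher. Of all tested genes 0.235% differed by 1 or more between the replicates at 2.5 nM, and 0.0706% at 10 nM. Members with and without a GENCODE transcript of 1000 bases took part in the gap at 2.5 nM, 8 of 19 and 14 of 37. The median difference of the 13 mitochondrially encoded genes, replicate 2 minus replicate 1, was 0.91 at 2.5 nM, -0.22 at 10 nM and 0.91 in parental DMSO cells, where the members' median difference was -0.03. Its part in the gaps was not tested. Counts of called members that rest on these libraries are given with and without them. Sums, ratios of mean CPM and fold changes are given with them only. Counts with a library left out are given without the share of all tested genes called. A loss particular to the members therefore cannot be told from a general loss of calls.

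**Figure D1:**
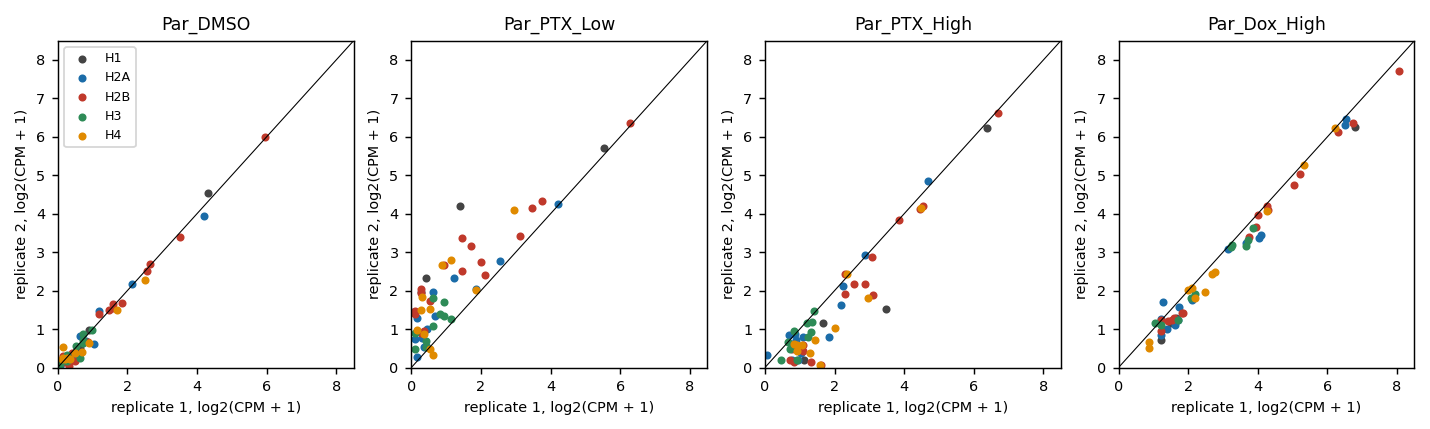
Levels of the 56 members in replicate 1 (horizontal axis) and replicate 2 (vertical axis) of 4 parental groups, as log2(CPM + 1), coloured by histone class, with a line of equality. At 2.5 nM paclitaxel 22 members lie 1 or more above the line and at 10 nM 7 lie 1 or more below it, and with DMSO or 1 µM doxorubicin 0 do.

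The summed level of the members differed widely between groups. It was 155 and 153 CPM in parental DMSO cells, 147 and 154 CPM in DR DMSO cells and 134 and 134 CPM in PR DMSO cells. Parental cells at 1 µM doxorubicin held the highest sum, 1193 and 988 CPM, with both libraries above all others. Next came parental cells at 10 nM paclitaxel (399 and 328 CPM), parental cells at 2.5 nM paclitaxel (217 and 347 CPM) and PR cells at 10 nM paclitaxel (264 and 254 CPM), each overlapping the next. By mean, the parental combination (234 and 223 CPM) and parental cells at 65 nM doxorubicin (178 and 185 CPM) came below these. Neither overlapped its neighbours in the order, but the combination lay within the range of the parental libraries at 2.5 nM paclitaxel. The other 9 groups had means of 123 to 165 CPM. In bulk RNA, fewer cells that express a gene and less RNA per cell cannot be told apart. With 2 libraries a group an exact permutation test of a sum cannot reach 0.05, so the sums are descriptions and the tests were made gene by gene.

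**Figure D2:**
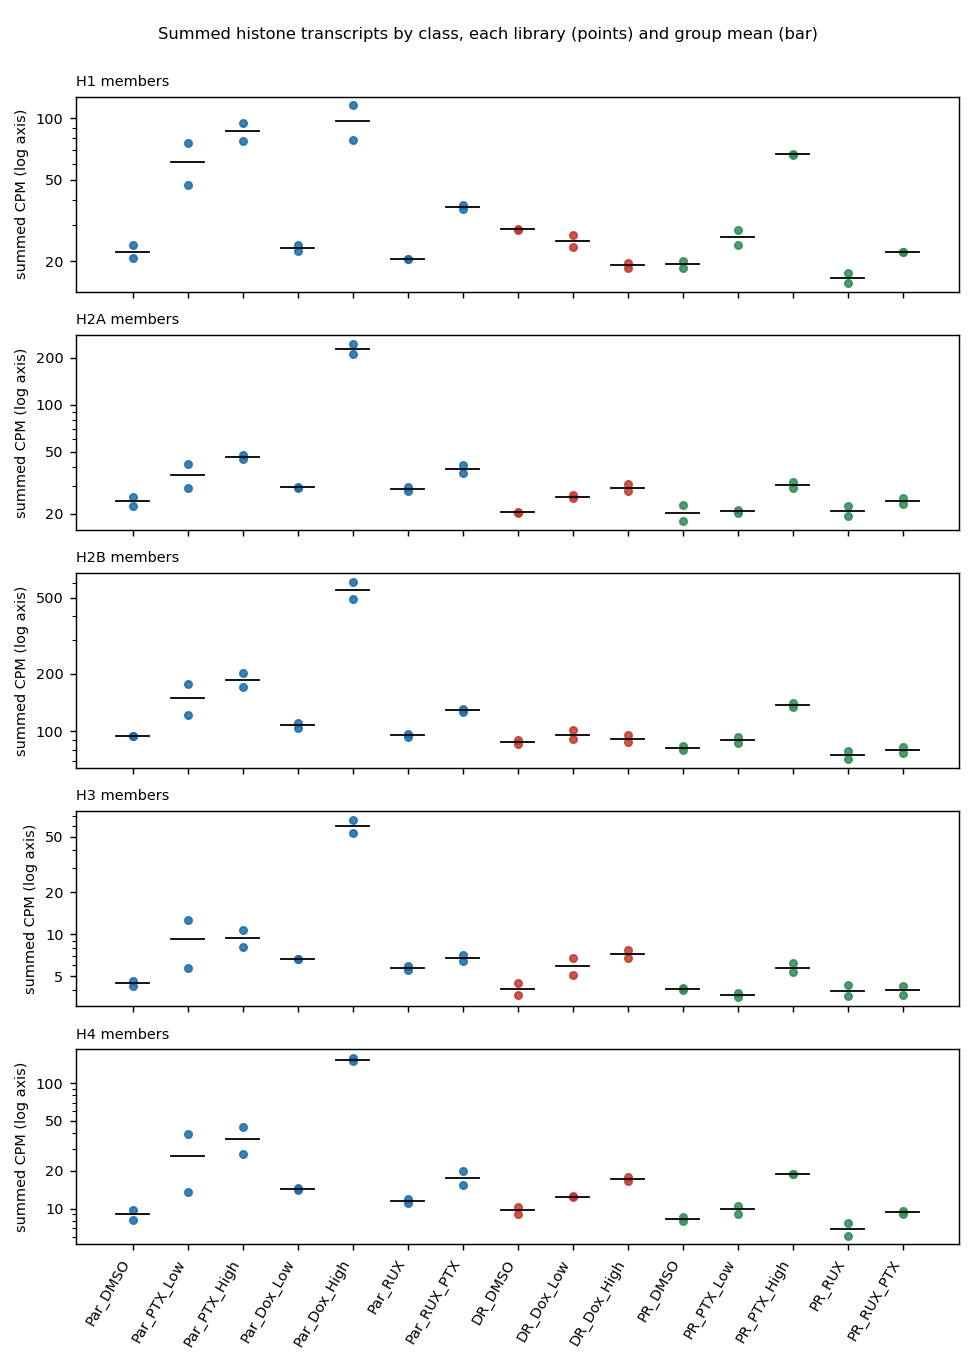
Summed CPM of the members of each histone class (log axis) in every library (points) with the group mean (bar), parental in blue, DR in red and PR in green. The highest group mean is in parental cells at 1 µM doxorubicin in all 5 panels, and for H1 the libraries there (78.7 and 115 CPM) overlap those at 10 nM paclitaxel (77.9 and 95 CPM).

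Single members varied to different degrees. Over the 30 libraries the lowest, median and highest levels of HIST1H1C, a linker histone gene, were 14.2, 22.7 and 110.2 CPM. Those of HIST1H2AC and HIST1H2AG, H2A genes, were 10.0, 17.4 and 90.9 CPM and 2.55, 4.18 and 89.1 CPM. Those of the H2B genes HIST1H2BK, HIST1H2BD and HIST2H2BE were 37.1, 58.7 and 263 CPM, 6.41, 11.6 and 78.7 CPM and 4.74, 8.59 and 105 CPM. In these 6 genes the highest library was a parental library at 1 µM doxorubicin. Among the H3 and H4 genes, the 3 members of each class with the highest mean were also highest there, but that mean includes those libraries. The linker histone genes HIST1H1E and HIST1H1D were highest in replicate 2 of parental cells at 2.5 nM paclitaxel, at 17.3 and 3.98 CPM. Of the 56 members, 46 had their highest library in parental cells at 1 µM doxorubicin and 10 in replicate 2 of parental cells at 2.5 nM paclitaxel. The level limit was met only through the 1 µM doxorubicin libraries by 18 members, which had to be high there, so counts over the 56 at that dose are descriptions. Without those libraries and the 2 paclitaxel libraries that stood apart, 26 members met it. Counts over the 56 in the parental paclitaxel groups are therefore descriptions too. The 15 members at 1 CPM or more in both parental DMSO libraries, which were so in all 30, are given beside them. At the other end, 7 members were at or under 3 reads in both parental DMSO libraries.

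In parental cells nearly every member was at a higher CPM at 1 µM doxorubicin than with DMSO. CPM is relative to the reads of a library, so amounts per cell were not measured. The mean H4 sum was 154 CPM (SD 6.15, n = 2) against 9.01 CPM (SD 1.17, n = 2), and the H3 sum 59.6 CPM (SD 9.06) against 4.45 CPM (SD 0.231). The H2A sum was 9.55 times, the H2B sum 5.86 times and the H1 sum 4.34 times its DMSO mean, and the difference between classes was not tested. By limma, over 12743 tested genes, 53 of 56 members were higher and 0 lower (34.3% of tested genes higher, 41.5% lower), with a median log2 fold change of 1.84. Fold changes are on the log2(CPM + 1) scale, which understates the change of genes near or under 1 CPM. Among the 15 members expressed with DMSO all 15 were higher, with ratios of mean CPM from 3.78 (HIST1H2BK) to 24.2 (HIST1H2AG) and a median of 8.16.

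Among the H2A genes, HIST1H2AG rose from 3.4 and 3.51 CPM to 89.1 and 78.4 CPM (log2 fold change 4.25, SE 0.15), with an adjusted p of 5.70e-17 by limma. HIST1H2AC rose from 17.4 and 14.4 CPM to 90.9 and 86.8 CPM (2.41, SE 0.13) and HIST3H2A, of the small HIST3 cluster, from 1.25 and 1.77 CPM to 15.3 and 9.39 CPM (2.38, SE 0.17). Among the H2B genes, HIST2H2BE rose from 4.9 and 4.74 CPM to 105 and 80.5 CPM (4.00, SE 0.18). HIST1H2BD rose from 10.3 and 9.44 CPM to 78.7 and 69 CPM (2.78, SE 0.14) and HIST1H2BK from 61.4 and 63.3 CPM to 263 and 208 CPM (1.89, SE 0.09). In all 6 genes, as in all 56 members, both treated libraries lay above both DMSO libraries. Such separation carries little weight with 2 libraries a group. With ruxolitinib alone in parental cells, where 0 members were called, 32 of 56 lay above without overlap and 6 below. The share over all tested genes is not given here.

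The H3 and H4 genes were low with DMSO. HIST1H3H rose from 0.445 and 0.483 CPM to 13.6 and 11.4 CPM (3.20, SE 0.17), HIST1H3D from 0.648 and 0.838 CPM to 11.8 and 7.9 CPM (2.61, SE 0.22) and HIST1H3G from 0.648 and 0.645 CPM to 8.34 and 7.78 CPM (2.46, SE 0.12). HIST1H4H rose from 4.74 and 3.87 CPM to 73.6 and 74 CPM (3.82, SE 0.22), HIST2H4B from 2.27 and 1.84 CPM to 38.9 and 37.7 CPM (3.69, SE 0.14) and HIST1H4E from 0.85 and 0.548 CPM to 18.3 and 15.9 CPM (3.42, SE 0.34). Again no treated library of these genes overlapped a DMSO library.

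The linker histone genes gave unlike values. HIST1H1C rose from 18.9 and 22.1 CPM to 110.2 and 75.4 CPM (2.10, SE 0.12) and HIST1H1D from 0.486 and 0.419 CPM to 2.12 and 1.45 CPM (0.93, SE 0.32). HIST1H1E, at 0.85 and 0.967 CPM with DMSO and 1.83 and 1.22 CPM with doxorubicin, did not pass the test (0.39, SE 0.64), nor did HIST1H1B (0.39, SE 0.33) or the H4 gene HIST1H4A (0.47, SE 0.35). Members with a GENCODE transcript of 1000 bases or more had a median log2 fold change of 2.57 (19 of 19 higher) and the others 1.44 (34 of 37 higher), a difference that was not tested. Their median levels in parental DMSO cells were 0.969 and 0.267 CPM, and the log2(CPM + 1) scale understates the change of the lower set.

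Genes that act on histone messages are given by count, to be read against the 34.3% of tested genes that were higher and the 41.5% that were lower at this dose: of 8 genes of histone gene transcription 3 were higher and 3 lower, of 18 genes of histone 3' end processing 6 were higher and 5 lower, and of 11 genes of histone message decay and translation 1 was higher and 4 lower. HINFP, which binds H4 promoters, rose from 7.4 to 19.8 CPM (1.30, SE 0.11), and POU2F1 fell from 106 to 78.9 CPM (-0.42, SE 0.11). LSM11, a subunit of the U7 small nuclear RNP, fell from 26.7 to 13.9 CPM (-0.90, SE 0.10), and ZNF473, which associates with that particle, rose from 16.3 to 28.9 CPM (0.79, SE 0.09). Also, of 12 replication-independent histone variants 6 were higher and 4 lower, of 20 histone chaperones 8 were higher and 12 lower and of 32 DNA replication genes 11 were higher and 10 lower. H2AFJ, an H2A variant, rose from 30.3 to 135 CPM (2.10, SE 0.13) and H3F3B, which encodes H3.3, from 657 to 1484 CPM (1.18, SE 0.09).

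At 65 nM doxorubicin few members were higher in parental cells. By limma 5 of 56 members were higher and 0 lower (5.21% of tested genes higher, 5.94% lower), with a median log2 fold change of 0.10. HIST1H3G rose from 0.648 and 0.645 CPM to 2.46 and 2.43 CPM (1.07, SE 0.12). The others were HIST1H2BJ (0.78, SE 0.14), HIST2H2BE (0.61, SE 0.18), HIST2H4B (0.57, SE 0.14) and HIST1H2BC (0.48, SE 0.13). Without parental DMSO replicate 1, DMSO replicate 2 or 65 nM replicate 2, 3 members were called in each case. HIST2H2BE lost its call without each of them (adjusted p by limma 0.115, 0.0578 and 0.48), and HIST1H2BC without the first and the last (0.108 and 0.333). Between the doses, 1 µM against 65 nM, 52 of 56 members were higher and 0 lower (33.8% of tested genes higher, 40.1% lower), with HIST1H2AG (3.83, SE 0.15), HIST2H2BE (3.38, SE 0.18) and HIST1H4E (3.19, SE 0.34) among them.

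In DR cells 1 µM doxorubicin was followed by small changes in both directions. The summed level was 169 and 159.8 CPM, against 147 and 154 CPM with DMSO. By limma 8 of 56 members were higher and 2 lower (19.1% of tested genes higher, 19.9% lower), with a median log2 fold change of 0.11. HIST1H3G rose from 0.647 and 0.769 CPM to 2.3 and 2.59 CPM (1.01, SE 0.12), HIST1H2AG from 2.89 and 3 CPM to 6.56 and 6.69 CPM (0.95, SE 0.15) and HIST2H2BE from 7.2 and 7.38 CPM to 15.7 and 14.2 CPM (0.95, SE 0.18). HIST2H4B rose from 1.94 and 1.81 CPM to 4.13 and 4.45 CPM (0.88, SE 0.14), and HIST1H2BJ, HIST1H2BD and HIST1H2AC rose by 0.36 to 0.48. HIST1H4H rose from 4.3 and 4.77 CPM to 7.19 and 8.5 CPM (0.67, SE 0.22), a call lost without DR DMSO replicate 1 (adjusted p by limma 0.0969) and without 1 µM replicate 2 (0.121).

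The linker histone gene HIST1H1C fell in the same cells, from 26 and 25.2 CPM to 18.1 and 17.2 CPM (-0.51, SE 0.12), and so did HIST1H2BK, from 50.3 and 55 CPM to 41.6 and 37.1 CPM (-0.41, SE 0.09). In both, as in 11 of the 56 members, the treated libraries lay below the DMSO libraries, and in 26 they lay above without overlap. Such separation carries little weight with 2 libraries a group. Its share over all tested genes is not given, so these counts are descriptions. In the same cells 19.1% of tested genes were higher and 19.9% lower. Of 8 genes of histone gene transcription 6 were higher and 1 lower, and of 32 DNA replication genes 19 were higher and 0 lower. E2F1 rose from 48.3 to 80.9 CPM, the cyclin E gene CCNE2 from 138 to 235 CPM and SLBP from 71.9 to 91.7 CPM (0.35, SE 0.08). The replication-independent linker histone genes H1FX (74.5 to 30.4 CPM; -1.27, SE 0.12) and H1F0 (169 to 71.8 CPM; -1.23, SE 0.09) fell. At 350 nM 3 of 56 members were higher and 0 lower (2.39% of tested genes higher, 1.43% lower): HIST1H3G (0.81, SE 0.12), HIST2H4B (0.60, SE 0.14) and HIST1H2BJ (0.59, SE 0.14). Without DR DMSO replicate 1, DR DMSO replicate 2 or 350 nM replicate 2, 1 was called in each case.

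The difference between the lines in the response to 1 µM doxorubicin was tested directly. By limma's interaction contrast, DR minus parental, 0 of 56 members were higher and 49 lower (33.2% of tested genes higher, 25.1% lower), with a median of -1.72. The difference was -3.30 (SE 0.22) for HIST1H2AG, -3.15 (SE 0.30) for HIST1H4H and -3.05 (SE 0.26) for HIST2H2BE. HIST1H1C, which rose in parental and fell in DR cells, differed by -2.62 (SE 0.17), and HIST1H2BK by -2.30 (SE 0.13). All 15 members expressed with DMSO had a smaller response in DR cells, from -3.30 to -1.75. The 7 members that did not pass the test were HIST1H1B, HIST1H1E, HIST1H2AL, HIST1H2BI, HIST1H2BM, HIST1H4A and HIST1H4B, at -1.09 to -0.46.

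**Figure D3:**
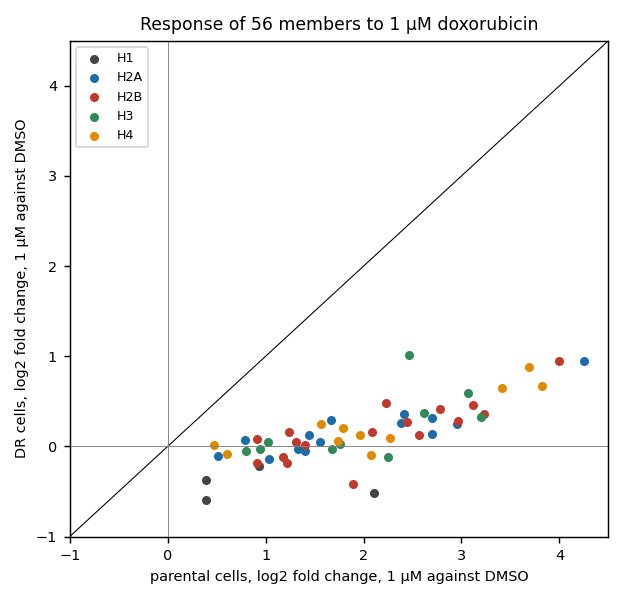
Log2 fold change at 1 µM doxorubicin against DMSO of each of the 56 members in parental cells (horizontal axis) and DR cells (vertical axis), coloured by histone class. Parental values run from 0.39 to 4.25 and DR values from -0.60 to 1.01.

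At 10 nM paclitaxel parental cells also held higher levels of many members. The H1 sum was 86.4 CPM (SD 12.1, n = 2) against 22.4 CPM with DMSO (SD 2.25, n = 2), and the H4 sum 36 CPM (SD 12). The H2A, H2B and H3 sums were 1.92, 1.97 and 2.11 times their DMSO means. By limma 38 of 56 members were higher and 0 lower (20.1% of tested genes higher, 28.1% lower), with a median log2 fold change of 0.61, and all 15 members expressed with DMSO were higher. Without 10 nM replicate 1, which stood apart, 21 were called, 24 without both libraries that stood apart and 25 without parental DMSO replicate 2, all higher.

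HIST1H1C rose from 18.9 and 22.1 CPM to 81.5 and 74.7 CPM (log2 fold change 1.88, SE 0.12), with an adjusted p of 3.79e-11 by limma. HIST1H4H rose from 4.74 and 3.87 CPM to 21.6 and 16.7 CPM (1.92, SE 0.22) and HIST2H2BE from 4.9 and 4.74 CPM to 20.9 and 16.4 CPM (1.75, SE 0.18). HIST1H2BK rose from 61.4 and 63.3 CPM to 102 and 98 CPM (0.68, SE 0.09), HIST1H2BD from 10.3 and 9.44 CPM to 22.4 and 17.3 CPM (0.93, SE 0.14) and HIST1H2AC from 17.4 and 14.4 CPM to 24.7 and 27.7 CPM (0.69, SE 0.13). In these 6 genes, as in 45 of the 56 members, the treated libraries lay above the DMSO libraries. Such separation carries little weight with 2 libraries a group. Its share over all tested genes is not given, so the 45 is a description. HIST1H1E, at 10.1 and 1.86 CPM, did not pass the test (1.56, SE 0.64, adjusted p = 0.0548 by limma).

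In the same cells, where 20.1% of tested genes were higher and 28.1% lower, of 32 DNA replication genes 0 were higher and 27 lower, of 20 histone chaperones 2 were higher and 12 lower, and of 12 replication-independent variants 2 were higher and 7 lower. RRM2, a ribonucleotide reductase subunit gene, fell from 625 to 323 CPM (-0.95, SE 0.10), and H2AFZ, which encodes H2A.Z, from 341 to 241 CPM (-0.50, SE 0.07). Among genes acting on histone messages, of 8 genes of transcription 1 was higher and 3 lower and of 18 genes of 3' end processing 2 were higher and 6 lower, with LSM11 at -0.54 (SE 0.10) and ZNF473 at 0.79 (SE 0.09). CD68, a macrophage marker, rose from 18.1 to 35.1 CPM, and its part in the result was not tested.

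At 2.5 nM the count rested on the library that stood apart. By limma 24 of 56 members were higher and 0 lower (9.71% of tested genes higher, 17.1% lower), with a median log2 fold change of 0.53. Some members met the level limit only through the libraries that stood apart, so this count is a description. Among the 15 members expressed with DMSO, ratios of mean CPM ran from 1.12 (HIST1H2AC) to 3.09 (HIST2H2BF), with a median of 1.90. These ratios include the library that stood apart and are not given without it. HIST2H2BF was at a mean of 5.54 CPM (SD 5.38) against 1.79 CPM. Its libraries overlapped those with DMSO, and it was not called (adjusted p = 0.0873 by limma). Only 2 members were called without 2.5 nM replicate 2 and 3 without both libraries that stood apart, against 46 without 2.5 nM replicate 1. Without parental DMSO replicate 1 the count was 7, and it was 15 without DMSO replicate 2. HIST1H1C, close in both treated libraries, rose from 18.9 and 22.1 CPM to 45.1 and 51.1 CPM (1.19, SE 0.12), and HIST2H2BE from 4.9 and 4.74 CPM to 10.1 and 16.8 CPM (1.28, SE 0.18). HIST1H1E rose by 1.87 (SE 0.64, adjusted p = 0.0415 by limma), from the 2 unlike libraries given above. Its adjusted p by limma was 0.56 without replicate 2, 0.237 without parental DMSO replicate 1 and 0.0777 without DMSO replicate 2.

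Between the doses, 10 nM against 2.5 nM, 7 of 56 members were higher and 0 lower (12.2% of tested genes higher, 15.4% lower). HIST1H1C was higher by 0.69 (SE 0.12, adjusted p = 0.000257 by limma). HIST1H4H (0.80, SE 0.22) lost its call without 2.5 nM replicate 1 (adjusted p by limma 0.374) and without 10 nM replicate 1 (0.0778). HIST1H2BG (0.61, SE 0.19) lost it without those 2 (0.443 and 0.115) and without 10 nM replicate 2 (0.0535). HIST1H2BC, HIST1H2AC, HIST2H4B and HIST1H2BK were higher by 0.34 to 0.56. Without both libraries that stood apart 12 members were higher, and 19 were without 2.5 nM replicate 2. Without 2.5 nM replicate 1, 2 were higher and 17 lower, so the direction depended on the library of the lower dose that was kept.

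**Figure D4:**
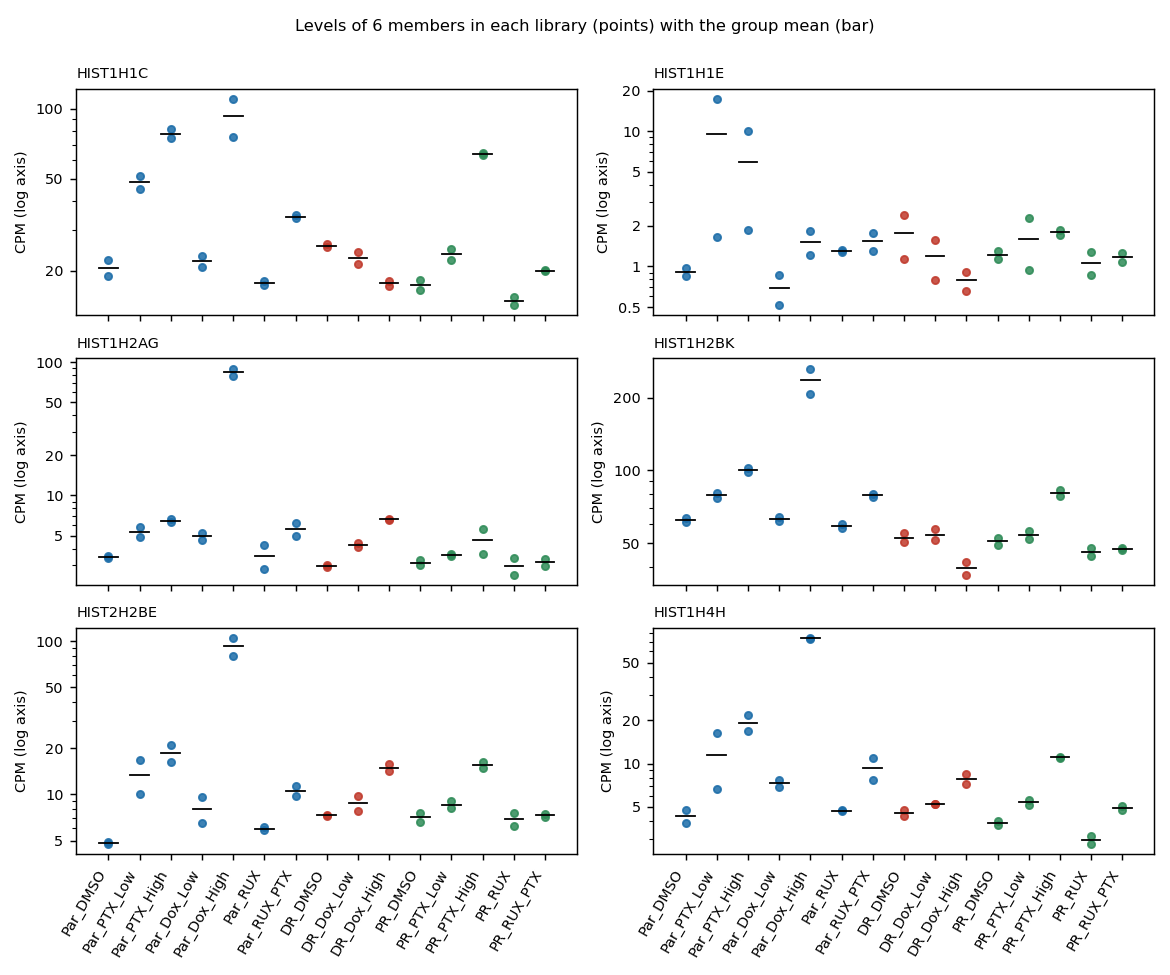
CPM (log axis) of 6 members in every library (points) with the group mean (bar), parental in blue, DR in red and PR in green. HIST1H1C is high in both libraries at 10 nM paclitaxel in parental and in PR cells, HIST1H1E is high in 1 library of each parental paclitaxel group, and HIST1H2AG is high in parental cells at 1 µM doxorubicin.

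In PR cells 10 nM paclitaxel was followed by higher HIST1H1C and several H2B genes. By limma 10 of 56 members were higher and 0 lower (6.62% of tested genes higher, 6.99% lower), with a median log2 fold change of 0.21, and all 10 were among the 15 members expressed with DMSO. HIST1H1C rose from 16.5 and 18.2 CPM to 64.3 and 63.4 CPM (1.82, SE 0.12), HIST1H4H from 4.01 and 3.76 CPM to 10.9 and 11.2 CPM (1.30, SE 0.22) and HIST1H2BD from 6.41 and 7.2 CPM to 16.1 and 14.2 CPM (1.05, SE 0.14). HIST2H2BE rose from 6.58 and 7.6 CPM to 16.2 and 14.8 CPM (1.03, SE 0.18) and HIST1H2BK from 49.2 and 52.5 CPM to 82.9 and 78 CPM (0.65, SE 0.09). In these 5 genes the groups did not overlap. The count was 6 without PR DMSO replicate 2. HIST1H1E, at 1.14 and 1.29 CPM with DMSO and 1.86 and 1.71 CPM with paclitaxel, did not pass the test (0.33, SE 0.64). Of the 56 members, 31 lay higher and 2 lower without overlap of the groups. With ruxolitinib alone in parental cells, where 0 were called, 32 lay higher and 6 lower. The share over all tested genes is not given, so these counts are descriptions. In PR cells at 10 nM 6.62% of tested genes were higher and 6.99% lower. Of 8 genes of histone gene transcription 0 were higher and 0 lower, and of 32 DNA replication genes 0 were higher and 2 lower. At 6.5 nM 0 of 56 members were higher and 0 lower (0.0706% of tested genes higher, 0.0235% lower), with 3 at an unadjusted p under 0.05 by limma, and HIST1H1C was at 22.3 and 24.9 CPM.

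The responses of the 2 lines to 10 nM paclitaxel were compared by limma's interaction contrast, PR minus parental, in which 0 of 56 members were higher and 1 lower (6.87% of tested genes higher, 3.88% lower). The member was HIST1H2BH, named after its values were seen (-1.22, SE 0.40, adjusted p = 0.0487 by limma). It was at 2.02 and 2.13 CPM with DMSO and 6.31 and 3.48 CPM with paclitaxel in parental cells, and at 3.04 and 2.95 CPM and 2.32 and 2.05 CPM in PR cells. Without either parental DMSO library, either PR DMSO library, parental 10 nM replicate 1 or PR 10 nM replicate 1, 0 members were called, and 6 were without parental 10 nM replicate 2. HIST1H1C differed by -0.06 (SE 0.17), HIST1H2BK by -0.02 (SE 0.13) and HIST2H2BE by -0.72 (SE 0.26). A p that misses the threshold does not show that the lines responded alike.

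With DMSO the lines differed in few members. In DR against parental cells 2 of 56 members were higher and 0 lower (12.3% of tested genes higher, 15.2% lower): HIST2H2BE, at 7.2 and 7.38 CPM against 4.9 and 4.74 CPM (0.51, SE 0.18), and HIST1H2BJ (0.45, SE 0.14). HIST2H2BE lost its call without any 1 of the 4 libraries (adjusted p by limma 0.0806 to 0.15). Without DR DMSO replicate 1, 0 were called, and without DR DMSO replicate 2 or parental DMSO replicate 1, 1 was.

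In PR against parental cells 1 of 56 members was higher and 3 lower (16.3% of tested genes higher, 16.3% lower). HIST2H2BE was higher (0.47, SE 0.18). HIST1H2BD was lower, at 6.41 and 7.2 CPM against 10.3 and 9.44 CPM (-0.48, SE 0.14), as were HIST1H2AC (-0.43, SE 0.13) and HIST1H2BK (-0.29, SE 0.09). Leaving out replicate 1 of either group left 1 call, and leaving out replicate 2 of either left 2. HIST2H2BE lost its call without any 1 of the 4 libraries (adjusted p by limma 0.0772 to 0.244), with a replicate block (0.0554), with voom (0.0849) and without a filter (0.0914). HIST1H2BD lost it without parental DMSO replicate 1 (adjusted p by limma 0.0593) and without PR DMSO replicate 1 (0.102). HIST1H2AC lost it without parental DMSO replicate 1 (adjusted p by limma 0.128), without PR DMSO replicate 2 (0.246) and fitted on only these groups (0.0891). HIST1H2BK lost it without parental DMSO replicate 2 (adjusted p by limma 0.0833), without PR DMSO replicate 1 (0.142), fitted on only these groups (0.107) and with GC and length correction (0.117, and 0.124 with a replicate block). In DR against PR cells 2 of 56 members were higher and 0 lower (15.6% of tested genes higher, 18.4% lower): HIST1H1C, at 26 and 25.2 CPM against 16.5 and 18.2 CPM (0.54, SE 0.12), and HIST1H2BJ (0.48, SE 0.14). Without DR DMSO replicate 1 or PR DMSO replicate 2, 1 was called. These 3 comparisons share their DMSO libraries.

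With ruxolitinib alone no member passed the test. In parental cells 0 of 56 members were higher and 0 lower (5.51% of tested genes higher, 7.71% lower), with 1 at an unadjusted p under 0.05 by limma, and HIST1H1C was at 18.1 and 17.3 CPM. In PR cells 0 of 56 members were higher and 0 lower (2.86% of tested genes higher, 4.06% lower), with 0 at an unadjusted p under 0.05 by limma, and HIST1H1C was at 14.2 and 15.4 CPM. In the difference of the 2 responses 0 of 56 members were higher and 0 lower (0.298% of tested genes higher, 0.11% lower), with 2 at an unadjusted p under 0.05 by limma.

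The parental combination was compared with 2.5 nM paclitaxel alone, and 1 of 56 members was higher and 6 lower (15.1% of tested genes higher, 12.9% lower). HIST1H1C was lower, at 33.6 and 34.7 CPM against 45.1 and 51.1 CPM (-0.48, SE 0.12). That call was lost without 2.5 nM replicate 2 (adjusted p by limma 0.101) and without replicate 1 of the combination (0.0751). HIST1H2AC was higher, at 29.5 and 22.8 CPM against 17.7 and 18.1 CPM (0.51, SE 0.13), a call lost without replicate 1 of the combination (0.19). Without 2.5 nM replicate 2, which stood apart, or without both such libraries, 1 member was called, and it was higher. Without 2.5 nM replicate 1, 33 were called, 32 of them lower. Without replicate 1 of the combination the count was 0, and it was 4 without its replicate 2. In PR cells, the combination against 6.5 nM paclitaxel, 0 of 56 members were higher and 0 lower (1.16% of tested genes higher, 2.12% lower), with 4 at an unadjusted p under 0.05 by limma.

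**Figure D5:**
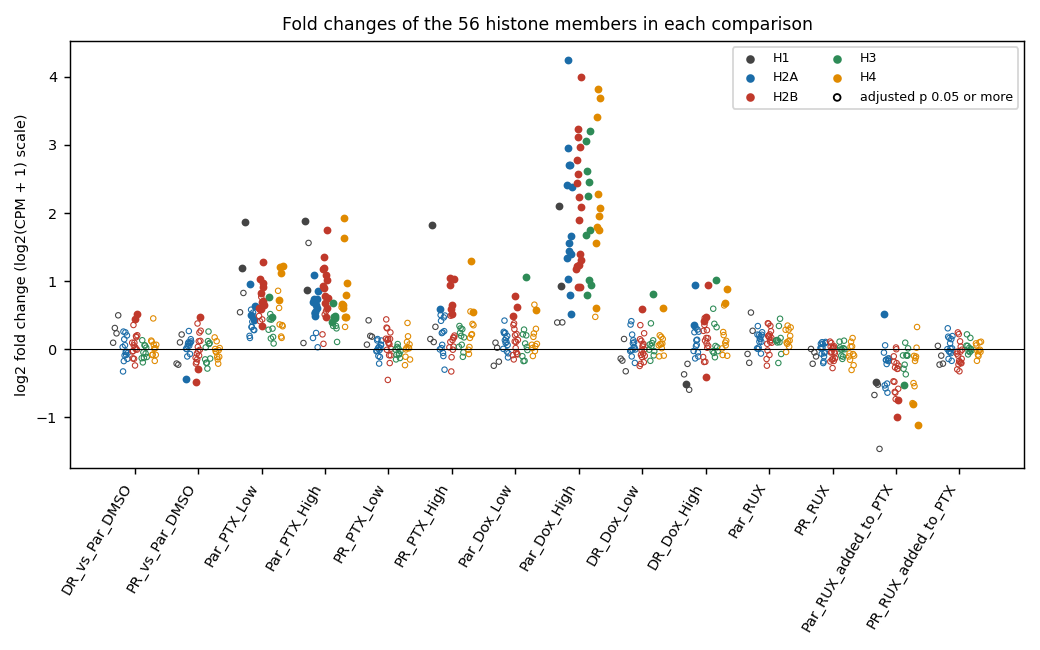
Log2 fold change of each of the 56 members (vertical axis, log2(CPM + 1) scale) in 14 comparisons (horizontal axis), coloured by histone class, filled for an adjusted p under 0.05 by limma and open otherwise. Parental cells at 1 µM doxorubicin span 0.39 to 4.25 with 53 filled points, and parental cells at 10 nM paclitaxel span 0.03 to 1.92 with 38.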

How the data were processed

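RNA was measured by sequencing of poly(A) libraries, 2 per group. The submitters' processing notes name STAR 2.5.1b, edgeR and the build GRCh37 (hg19). For the counter, annotation and strand setting, nothing is given in the sources used here. The authors deposited log2(CPM + 1) values with TMM scaling. Whole reads were recovered from the CPM steps (100% of values within 0.01 of a whole read) and used for depth and for voom. Of 20114 symbols, 12743 at CPM 1 or more in 2 libraries were tested with limma 3.58.1 (R 4.3.3) on the deposited values, as a means model of 15 groups with trend and robust moderation, two-sided, with Benjamini-Hochberg adjustment over all tested genes in each of 20 comparisons and a threshold of 0.05. The fit was tested on simulated counts with the same spread setting for every gene and no library that stood apart. That test therefore does not bear on calls that rest on such libraries. Named in full were the 3 members of each class with the highest mean CPM and, in each comparison, the 3 called members with the largest change in each direction at a mean CPM of 5 or more; other members named were chosen after their values were seen. For the classes the mean was taken over all 30 libraries, so the parental 1 µM doxorubicin libraries took part in that choice. The members and lists were chosen with earlier results of these data known, and the 13 mitochondrial genes were added after seeing the data. Alternatives were another pseudocount (0.25), filters, scaling, voom, GC and length correction, a replicate block, and leaving out libraries. The limit of 3 reads is for counting error alone.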

Additional observations from a re-analysis of the deposited data

Results flagged for a closer look

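The response to 1 µM doxorubicin differed between DR and parental cells in 49 of 56 members by limma's interaction contrast, all lower in DR, where 25.1% of tested genes were lower and 33.2% higher. Of the 56 members, 18 met the level limit only through the parental libraries at 1 µM doxorubicin, which enter this contrast. Of the 15 members at 1 CPM or more in both parental DMSO libraries, 15 were lower. The difference, DR minus parental, was -3.2961 for HIST1H2AG, -3.1494 for HIST1H4H and -3.0511 for HIST2H2BE on the log2 scale. The response to 10 nM paclitaxel differed between PR and parental cells in 1 member by the same kind of contrast, and that call was lost without any of 6 of the 8 libraries.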

How the results depend on the processing

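For the 37 pairs of a member and a comparison that the naming rule chose, 448 of 504 alternative values kept the direction and the call, 56 kept the direction and lost the call, and 0 reversed. Other members named were not recomputed one by one. Besides single libraries left out and the PR against parental DMSO calls given above, calls were lost for HIST1H1E at 2.5 nM paclitaxel (voom, GC and length correction with or without the block, only the groups compared, both libraries apart left out), HIST2H2BE in DR against parental DMSO cells and at 65 nM doxorubicin (voom, no filter, and at 65 nM only the groups compared), HIST1H2BC at 65 nM and HIST1H4H between the paclitaxel doses (only the groups compared), HIST1H4H in DR at 1 µM (GC and length correction with the block) and HIST1H1C for ruxolitinib added in parental cells (both libraries apart left out). Counts of called members stayed within 1.5 times in 208 settings, were larger in 22 and smaller in 47. A limit of CPM 5 in 2 libraries left 27 members. Of these, 26 were called in parental cells at 1 µM doxorubicin, 26 between its doses and 26 in the DR minus parental contrast. The limit can be met through the parental 1 µM doxorubicin libraries alone, as by HIST1H3H, so these counts are descriptions. Under the same limit 24 were called at 10 nM paclitaxel and 3 for ruxolitinib added to paclitaxel in parental cells. Without a filter, 1 was called in DR against parental DMSO cells and 0 in the PR minus parental contrast. With voom on recovered reads 3 were called for ruxolitinib added in parental cells. With GC and length correction the counts were 4 in DR against parental DMSO cells, 24 at 10 nM paclitaxel, 8 at 65 nM doxorubicin, 2 for parental ruxolitinib, 2 for PR at 6.5 nM, 1 for PR ruxolitinib and 2 for ruxolitinib added in PR cells. With that correction and a replicate block they were 4, 23, 2, 2, 1 and 2, in the same order and leaving aside 65 nM doxorubicin. Fitted on only the groups compared, the counts were 2 in PR against parental and 7 in DR against PR DMSO cells, 14 at 2.5 nM paclitaxel, 2 at 65 nM doxorubicin, 1 for parental ruxolitinib, 18 for DR at 1 µM, 5 for PR at 6.5 nM and 3 for ruxolitinib added in PR cells. The cause of these shifts was not tested.

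Replicate numbers did not pair the libraries in a uniform way. Over 105 pairs of groups the correlation of replicate differences ran from -0.689 to 0.650, with a median of 0.0016 and 30 pairs over 0.1. Some groups thus shared replicate differences, in the same or the opposite direction, and the reason was not tested. With the replicate block 0 members were called in the PR minus parental contrast, and no other count moved by more than 1.5 times. With both libraries that stood apart left out, an alternative chosen after seeing the data, the counts were 3 at 2.5 nM paclitaxel, 24 at 10 nM, 12 between its doses and 1 for ruxolitinib added in parental cells. Leaving out each library in turn gave 0 to 2 calls in DR against parental DMSO cells, 1 to 2 in PR against parental and 1 to 2 in DR against PR. It gave 2 to 46 at 2.5 nM paclitaxel, 21 to 45 at 10 nM, 5 to 19 between its doses and 0 to 33 for ruxolitinib added in parental cells. It gave 3 to 4 at 65 nM doxorubicin, 1 to 3 for DR at 350 nM, 6 to 9 for PR at 10 nM paclitaxel and 0 to 6 in the PR minus parental contrast. The share of all tested genes called was not set beside these counts, so shifts particular to the members cannot be told from general ones. For members near the floor of 3 reads, differences of a few reads could not be detected at this depth.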
